A study of Rattus norvegicus with 13 samples.

Results

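The 9 miRNAs described here are the mature products of the miR-17-92 cluster (rno-miR-17-5p, rno-miR-18a, rno-miR-19a, rno-miR-20a, rno-miR-19b and rno-miR-92a) and of its paralog, the miR-106b-25 cluster (rno-miR-106b, rno-miR-93 and rno-miR-25). They were picked by name from the 677 rat miRNAs of an Agilent 1-colour array, with earlier results of these data known. The array was run on fat of 13 adult female Sprague Dawley rats. The HFD group is 6 daughters of Sprague Dawley males kept on high-fat pellets (43% as fat), and the Control group is 7 daughters of males kept on chow (9% as fat). In both groups the males were bred at 15 weeks of age with females on chow, the daughters themselves ate chow, and their fat was taken at 14 weeks. Per the study's design text, the HFD fathers were heavier and insulin resistant, and their daughters were glucose intolerant without a difference in body weight. The labels give no fat depot, litter or father, so sisters cannot be told apart from unrelated rats, and whole fat holds blood and vessel cells beside adipocytes. The comparison asks whether the levels of these miRNAs in a daughter's fat go with her father's diet.

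Each cluster is transcribed as a common precursor that carries several hairpins, from which the mature miRNAs are cut one by one. The transcription factors MYC and E2F are known activators of the miR-17-92 gene, and the cluster is best known for promoting cell proliferation and survival. In mouse preadipocyte cultures, added miR-17-92 has been reported to speed adipocyte differentiation. A miRNA recognises messenger RNAs mainly through its seed, so members with the same seed share many targets. Well-studied targets are Cdkn1a, a brake on the cell cycle, for the miR-17 seed, and Bcl2l11, which promotes cell death, for the miR-92 seed.

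The mature sequences of all 9 members were found in RefSeq (rat build GRCr8) and fall into 4 seeds. They are shown 5′ to 3′ with the seed, bases 2 to 8, in capitals, because seed and sequence identity decide which members can share targets and which probes face near-identical RNAs. The first set holds the miR-17 seed, with miR-20b-5p of the X-linked paralog cluster miR-106a-363 added for comparison.
rno-miR-17-5p: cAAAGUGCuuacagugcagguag
rno-miR-20a: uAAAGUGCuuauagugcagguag
rno-miR-106b: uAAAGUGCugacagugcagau
rno-miR-93: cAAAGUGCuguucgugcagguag
rno-miR-20b-5p: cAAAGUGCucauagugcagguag
miR-18a has a seed of its own that differs from this one by a base.
rno-miR-18a: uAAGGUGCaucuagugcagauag
The miR-19 seed is carried by a pair of members that differ at a single base, written U11C with miR-19a first and positions counted from 1 at the 5′ end.
rno-miR-19a: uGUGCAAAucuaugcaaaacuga
rno-miR-19b: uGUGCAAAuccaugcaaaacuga
The miR-92 seed is carried by miR-92a of the first cluster and miR-25 of the paralog, which differ by U1C, C14U and C18U (miR-92a first).
rno-miR-92a: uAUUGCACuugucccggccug
rno-miR-25: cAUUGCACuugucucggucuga

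In GRCr8 the 6 mature products of miR-17-92 lie within 762 bases of the plus strand, from chr15:98587861-98587883 (miR-17-5p) to chr15:98588602-98588622 (miR-92a). The 3 products of miR-106b-25 lie within 472 bases of the minus strand, from chr12:22157103-22157123 (miR-106b) to chr12:22156652-22156673 (miR-25), inside Mcm7, the gene of a subunit of the helicase that opens DNA for replication. The mature sequences of miR-17-5p, miR-19b and miR-92a occur a second time on the X chromosome, at chrX:137343615-137343637, chrX:137343070-137343092 and chrX:137342945-137342965, in the miR-106a-363 cluster. An array signal for these 3 is therefore the sum over both loci. miR-20a and miR-20b-5p differ by U1C and U10C (miR-20a first) and miR-17-5p and miR-20a by C1U and C12U (miR-17-5p first), and how far the probes tell such pairs apart was not tested.

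The RefSeq promoter window of Mcm7 (chr12:22163129-22163428, minus strand, 250 bases before to 50 after the gene's start) is shown because the miR-106b-25 members lie in this gene, with the E2F-type motif in capitals.
Mcm7: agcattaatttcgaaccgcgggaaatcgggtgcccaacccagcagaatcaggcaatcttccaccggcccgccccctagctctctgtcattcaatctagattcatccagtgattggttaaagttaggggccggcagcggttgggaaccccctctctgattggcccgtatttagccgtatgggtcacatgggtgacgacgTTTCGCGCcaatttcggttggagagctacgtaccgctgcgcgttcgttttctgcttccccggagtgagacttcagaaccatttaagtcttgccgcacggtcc
The letters TTTCGCGC and TTTGGCGC were searched on both strands, and TTTCGCGC was found once, at bases 199 to 206 of the window. At least 1 of these motifs is in 0.792% of 33469 rat promoter windows of the same length. A match describes the letters and is not evidence of binding.

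Levels are log2 values of background-subtracted intensity, divided on each array by the 75th percentile of the 260 probes that were detected on all 13 arrays. A level therefore compares a miRNA with bright probes of the same array, and no miRNA's level was ranked against another's. Of the 677 miRNAs, 206 gave a signal above background on some array, an array detected 155 to 196 of them, and the 176 seen on 6 arrays or more were tested. All 6 fat markers (miR-143, miR-378, miR-103, miR-193, miR-365 and miR-26a) were detected on all 13 arrays. HFD 629, Control 662 and Control 664 stood apart in miR-1 and miR-133b, miRNAs of muscle: the mean log2 level of the pair was 1.81 to 2.68 there, and in the other 10 arrays miR-1 ran from -5.24 to -1.28. The main results are also given without these 3 arrays. Log2 levels of the nerve marker miR-338 and the liver marker miR-122 also varied between arrays, from -4.49 to 0.26 and from -5.67 to -2.28. The arrays were printed on slides: slide 1 carried 4 HFD and 4 Control arrays, and slide 2 carried 2 HFD and 3 Control arrays, of which 2 were the muscle-rich Control 662 and Control 664. On slide 2 the HFD rats had lower animal numbers (619 and 620) than the Control rats (658, 662 and 664). Father's diet and animal number therefore cannot be told apart on slide 2.

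All 9 members were detected somewhere, and 8 of them on every array. The exception was rno-miR-18a, which was detected on HFD 629, HFD 660 and HFD 663 and on none of the 7 Control arrays, and was not tested. Its level lay at the floor of the scale (-5.67) on 12 of 13 arrays and reached -5.64 on HFD 629, so these detections carry no measurable difference in level. None of the 12 opposite-strand products on the array, such as miR-17-1-3p and miR-25*, was detected on any array. Of the related miRNAs outside the 9, miR-20b-5p was detected on all 13 arrays, miR-32 on 4 (2 HFD and 2 Control), miR-363 on HFD 629 alone, and miR-92b on none.

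None of the 8 tested members differed between daughters of HFD fathers and of Control fathers beyond the spread between rats. All 8 were slightly higher on average, with log2 differences from 0.0020 to 0.095 and a median of 0.047, while 91 of all 176 tested miRNAs (51.7%) were higher and their median was 0.0028. No member and no other miRNA was called by limma at an adjusted p under 0.05 (0% of 176, with 2 at an unadjusted p under 0.05), and no member had groups that did not overlap (0% of 176). The members' adjusted p ran from 0.965 to 0.999. The 95% intervals of the fold change ran at their widest from 0.867 to 1.29, so a change in level by more than about that much in either direction lies outside them. Without the 3 muscle-rich arrays the members' median log2 difference was 0.089 and that of miR-19a 0.16, and no miRNA was called (members' adjusted p 0.659 to 0.853 in limma). With whole fat, fewer cells that carry a miRNA and less of it per cell cannot be told apart.

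**Figure D1:**
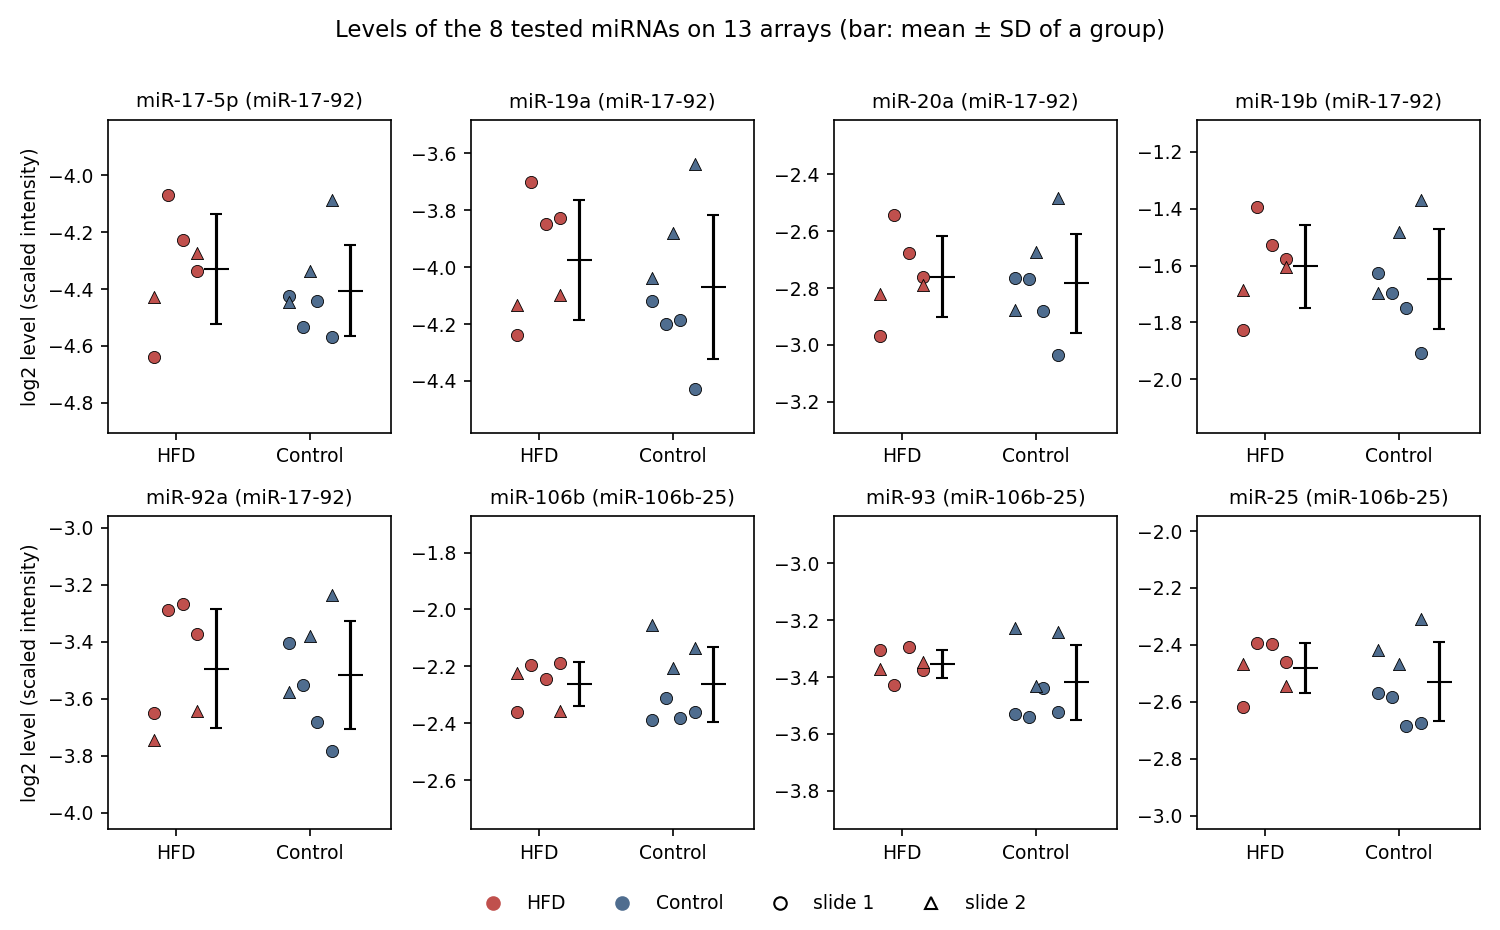
Log2 level (scaled intensity, y axis) of the 8 tested members on each of 6 HFD and 7 Control arrays (x axis). Circles are slide 1, triangles slide 2, and the bars are mean ± SD of a group; each panel spans the same range, and the groups overlap in every panel.

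In the miR-17-92 cluster, rno-miR-19a, which carries the miR-19 seed, had the largest average difference. Its lowest, median and highest log2 levels were -4.24, -3.97 and -3.70 in HFD daughters, against -4.43, -4.12 and -3.64 in Control daughters. The means differed by 0.095 ± 0.124 on the log2 scale (SE), a 1.07-fold change (95% interval 0.887 to 1.29, adjusted p = 0.976 in limma). All HFD arrays lay inside the Control range, which Control 656 closed at the low end and Control 664 at the high end. rno-miR-19b, with the same seed, had levels of -1.82, -1.59 and -1.39 in HFD daughters, against -1.91, -1.70 and -1.37 in Control daughters. Its log2 difference was 0.045 ± 0.088 (SE, adjusted p = 0.983 in limma). The same arrays marked its ends: Control 656 was lowest and Control 664 highest of the 13.

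rno-miR-17-5p, the member that gives the cluster its name, ran from -4.64 over a median of -4.30 to -4.07 in HFD daughters, against -4.57, -4.44 and -4.09 in Control daughters. The log2 difference was 0.076 ± 0.094 (SE), or 1.05-fold (95% interval 0.915 to 1.21, adjusted p = 0.976 in limma). HFD 624 and HFD 629 were the lowest and highest of all 13 arrays, so the HFD group enclosed the Control group. rno-miR-20a, which has the same seed, had levels of -2.97, -2.77 and -2.54 in HFD daughters, against -3.03, -2.77 and -2.48 in Control daughters. Its log2 difference was 0.024 ± 0.087 (SE, adjusted p = 0.983 in limma), and 3 of 6 HFD arrays lay above the Control median. rno-miR-92a ran from -3.74 over -3.51 to -3.27 in HFD daughters, against -3.78, -3.55 and -3.23 in Control daughters. Its log2 difference was 0.022 ± 0.105 (SE, adjusted p = 0.987 in limma), and its groups spanned nearly the same range.

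The miR-106b-25 members varied less. rno-miR-106b, which carries the miR-17 seed, had lowest, median and highest log2 levels of -2.36, -2.23 and -2.19 in HFD daughters, against -2.39, -2.31 and -2.06 in Control daughters. Its log2 difference was 0.0020 ± 0.062 (SE), and the 95% interval of its fold change was 0.912 to 1.10 (adjusted p = 0.999 in limma). The highest array was Control 658, followed by Control 664. rno-miR-93, with the same seed, had levels of -3.43, -3.36 and -3.30 in HFD daughters, against -3.54, -3.44 and -3.23 in Control daughters. The log2 difference was 0.065 ± 0.059 (SE), or 1.05-fold (95% interval 0.957 to 1.14, adjusted p = 0.965 in limma). All 6 HFD arrays lay above the Control median, within a range that the Control arrays exceeded at both ends. rno-miR-25, the miR-92 seed member, ran from -2.62 over -2.46 to -2.39 in HFD daughters, against -2.69, -2.57 and -2.31 in Control daughters. Its log2 difference was 0.049 ± 0.066 (SE, adjusted p = 0.976 in limma), and Control 664 was its highest array.

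The variation between rats within a group was 11.3% to 16.7% (coefficient of variation of the scaled intensity) for the miR-17-92 members and 7.33% to 8.23% for the miR-106b-25 members. Of the 176 tested miRNAs, 92 to 137 varied less than a given miR-17-92 member, and 38 to 55 varied less than a given miR-106b-25 member. The standard error between spots of a probe on an array had medians of 1.27% to 2.57%, which leaves out the error of labelling and hybridisation. Each member had 2 probes, which correlated over arrays with r from 0.64 (miR-93) to 0.98 (miR-19b). Both probes of a member gave the same sign of difference for 6 of 8 members, the exceptions being miR-92a (-0.012 and 0.056) and miR-106b (-0.0077 and 0.012). From the lowest to the highest array the levels spanned 1.24-fold (miR-93) to 1.73-fold (miR-19a).

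Within the slides the average differences took opposite signs. On slide 1 all 8 tested members were higher in HFD daughters, by a median log2 difference of 0.16, and on slide 2 all 8 were lower, with a median of -0.13. Of all 176 tested miRNAs, 26.1% were higher on slide 1 and lower on slide 2, and the medians over all were -0.011 and 0.022. The members were correlated over the same arrays (mean r 0.90 within miR-17-92 and 0.55 between clusters). Counts of members, here and in the other paragraphs, are therefore not counts of separate observations. The log2 differences on slide 1 and slide 2 were 0.33 ± 0.12 and -0.26 ± 0.14 (SE) for miR-19a, 0.21 ± 0.11 and -0.30 ± 0.12 for miR-92a, and 0.11 ± 0.048 and -0.16 ± 0.081 for miR-106b. No member was called within a slide by limma, with lowest adjusted p of 0.273 (miR-93) on slide 1 and 0.445 (miR-92a) on slide 2. The plot of differences by slide shows the same order for the other members.

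**Figure D2:**
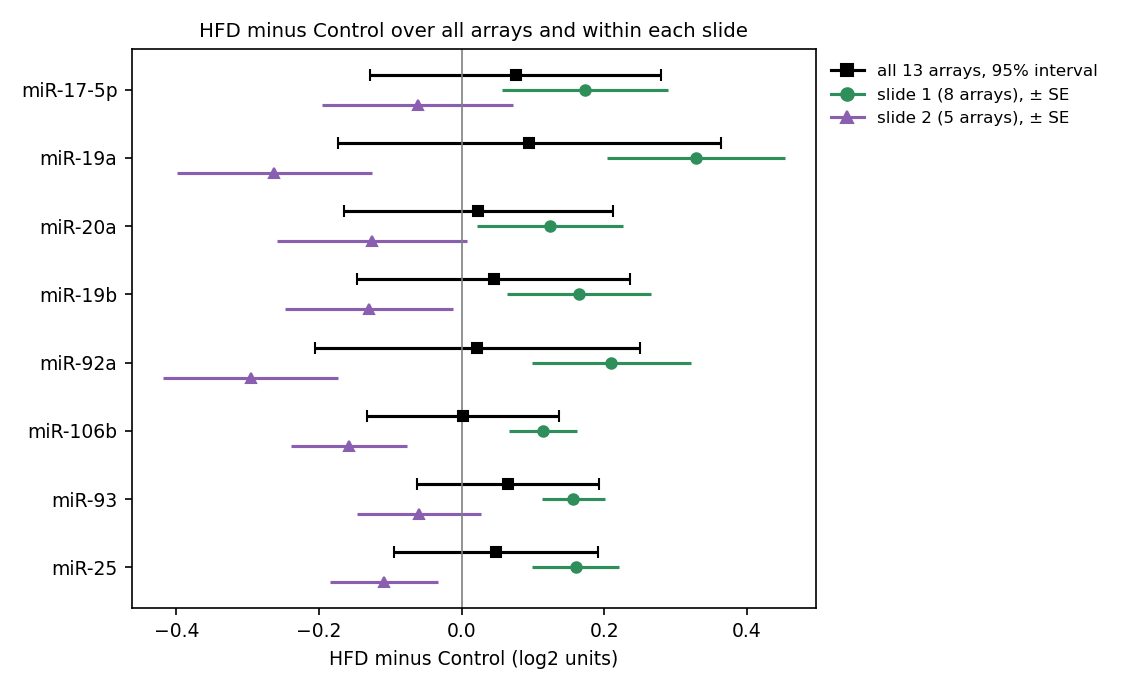
HFD minus Control difference in log2 units (x axis) for the 8 tested members (rows). Black squares are all 13 arrays with 95% intervals, green circles slide 1 and purple triangles slide 2, each ± SE; every slide 1 value is above 0 and every slide 2 value below 0, and no black interval excludes 0.

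The difference between slides was tested as the interaction of diet and slide. It was negative for all 8 members, from -0.22 (miR-93) to -0.59 (miR-19a), and its unadjusted p was under 0.05 for 5 of them (miR-19a, miR-92a, miR-106b, miR-93 and miR-25), where 19.3% of all tested miRNAs had such a p. With quantile normalization 1 member had such a p, and with the total gene signal 2 had. After adjustment over the 176 miRNAs no member was called (limma adjusted p 0.217 to 0.514). A single miRNA was called (0.568%), miR-451 of red blood cells, at -1.99 ± 0.35 (SE, adjusted p = 0.028 in limma), and that call held in 4 of 13 fits that left out 1 array. Among the members, miR-19a was called by limma without HFD 624 (adjusted p = 0.046), where 5 of all 176 miRNAs were called. Without the 3 muscle-rich arrays the interaction was no longer negative for miR-17-5p and miR-20a, and it stayed negative for the other members. That fit has 1 Control array on slide 2, so its calls decide nothing. A shift between slides common to both groups was not called for any miRNA (0% of 176, 22 at an unadjusted p under 0.05), and its lowest adjusted p among the members was 0.425 (limma).

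The array values show how the rats were ordered on each slide. For miR-106b the slide 1 levels were -2.36, -2.19, -2.25 and -2.19 in HFD daughters, against -2.39, -2.31, -2.38 and -2.36 in Control daughters. On slide 2 they were -2.22 and -2.36 in HFD daughters, against -2.06, -2.21 and -2.14 in Control daughters. The Control arrays of slide 2 thus lay above all Control arrays of slide 1, and every HFD array lay inside the range of the Control arrays. The Control arrays were ordered this way for 4 of 8 members (miR-19a, miR-106b, miR-93 and miR-25), against 13.6% of all tested miRNAs. On slide 2, HFD arrays were all below Control arrays for 4 of 8 members (miR-19a, miR-92a, miR-106b and miR-25), against 12.5% of all. The HFD arrays of slide 2 were all below those of slide 1 for 0 of 8 members, against 1.7% of all. On slide 1, HFD arrays were all above Control arrays for miR-93 alone, against 3.41% of all, at -3.31, -3.43, -3.30 and -3.37 in HFD daughters and -3.53, -3.54, -3.44 and -3.52 in Control daughters.

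Markers of red blood cells also took opposite signs on the slides. The mean log2 level of miR-144, miR-144* and miR-451 ran from -1.88 over a median of -1.39 to -0.66 in HFD daughters, against -2.55, -2.04 and -1.10 in Control daughters, and miR-144* lay at the floor on 3 Control arrays. For miR-451, the slide 1 levels reached 2.60 in HFD daughters, against 0.62 to 1.20 in Control daughters, and all 4 HFD arrays were above all 4 Control arrays. On slide 2 they ran from 1.45 to 1.53 in HFD daughters, against 2.04 to 2.30 in Control daughters. The part of blood in the members' differences by slide was not tested.

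**Figure D3:**
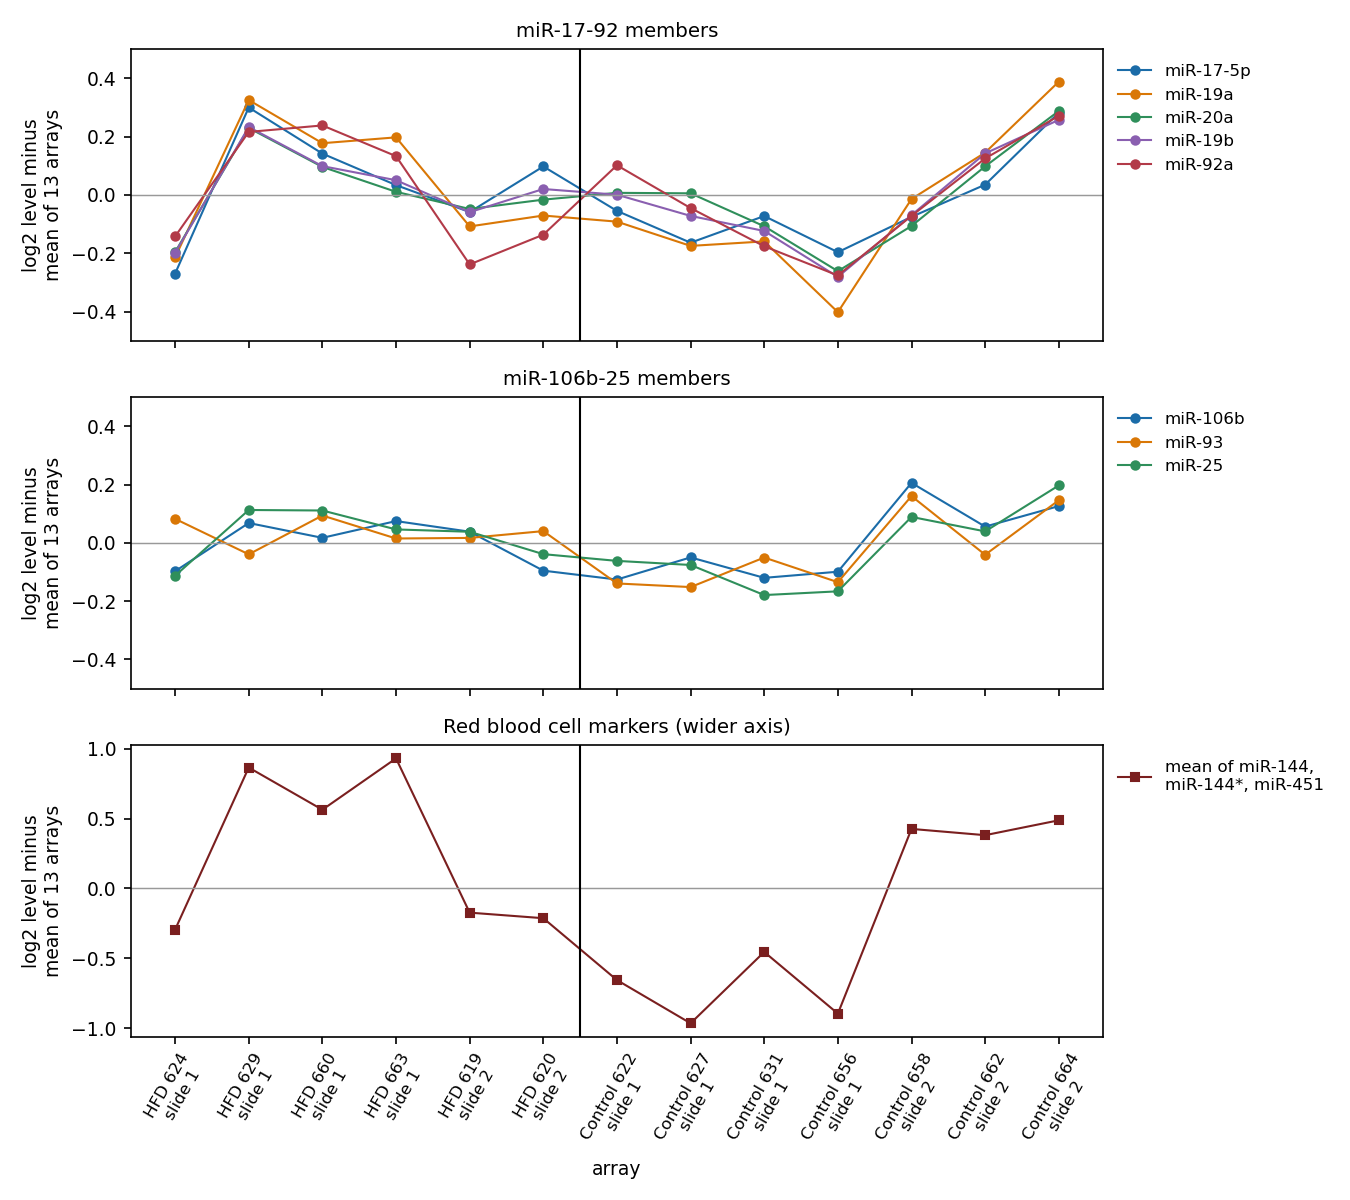
Log2 level minus the mean of the 13 arrays (y axis) on each array, HFD left of the line and Control right of it, for the miR-17-92 members (top), the miR-106b-25 members (middle) and the mean of 3 red blood cell markers (bottom, wider axis). The miR-17-92 members follow each other from array to array, with HFD 629 and Control 664 high and HFD 624 and Control 656 low.

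The members of miR-17-92 rose and fell together from rat to rat. Over the 13 arrays the 10 pairs of its 5 tested members had a mean Pearson r of 0.90, from 0.76 to 0.98, where the median over all 15400 pairs of tested miRNAs was 0.029. By a permutation test adjusted over all 15400 pairs, 9 of the 10 were called positive, against 1.04% of all pairs. The pair not called was miR-17-5p with miR-92a (r = 0.76, Spearman's rho = 0.76, permutation p = 0.0027 and 0.0035, adjusted p = 0.106 and 0.154). The closest pair was miR-19b with miR-20a, which differ in seed and at 18 of 23 positions: r was 0.98 and rho 0.96, each with a permutation p of 1e-05, the smallest that 100000 permutations can give (adjusted p = 0.0062 and 0.0091). miR-19a with miR-19b, which differ at 1 position, had r = 0.95 and rho = 0.94 (permutation p = 1e-05 and 2e-05, adjusted p = 0.0062 and 0.015). By rank the same count held, with 9 of 10 pairs called and rho from 0.76 to 0.96. Without the 2 arrays farthest from the median of the first miRNA of a pair, r stayed between 0.61 and 0.96.

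**Figure D4:**
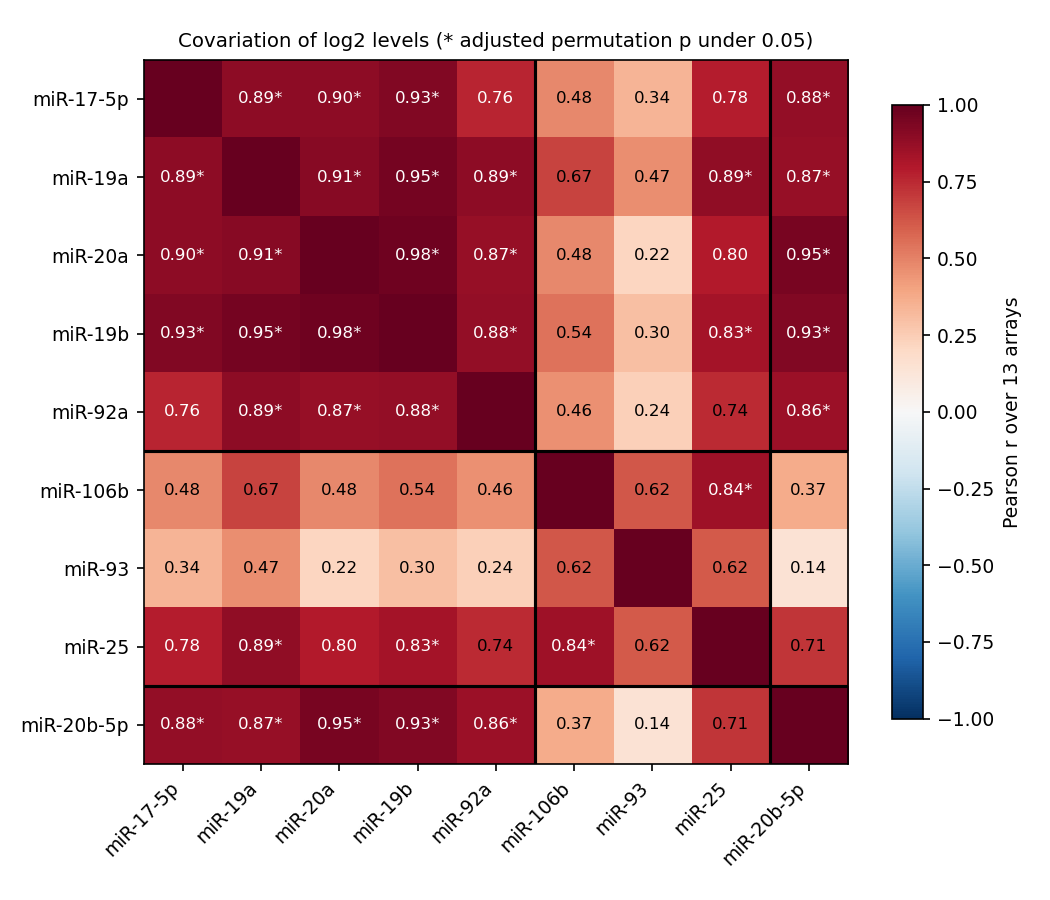
Pearson r over 13 arrays between log2 levels of the 8 tested members and miR-20b-5p (both axes, lines separate miR-17-92, miR-106b-25 and the X-linked miR-20b-5p). Colour gives r on a scale of -1 to 1 and a star marks an adjusted permutation p under 0.05; the miR-17-92 block runs from 0.76 to 0.98, and miR-93 has the lowest values with it.

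The miR-106b-25 members followed each other less closely, with a mean r of 0.69 over their 3 pairs. miR-106b with miR-25 was called (r = 0.84, rho = 0.84, permutation p = 4e-04 and 7.1e-04, adjusted p = 0.041 and 0.079), though not by rank. miR-93 had r = 0.62 with miR-106b (adjusted permutation p = 0.254) and 0.62 with miR-25 (adjusted permutation p = 0.259), and neither was called. The call of miR-106b with miR-25 held without Control 658 and without HFD 660, and was lost without each of the other 11 arrays in turn.

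Between the clusters the 15 pairs had a mean r of 0.55, from 0.22 to 0.89. Both called pairs involved miR-25, with miR-19a (r = 0.89, rho = 0.92, permutation p = 7e-05 and 3e-05, adjusted p = 0.017 and 0.018) and with miR-19b (r = 0.83, rho = 0.86, permutation p = 4.6e-04 and 1.9e-04, adjusted p = 0.045 and 0.041). Without the 2 farthest arrays these were 0.82 and 0.71. miR-25 had r of 0.74 to 0.89 with the 5 miR-17-92 members, miR-106b 0.46 to 0.67 and miR-93 0.22 to 0.47. The number of called pairs between clusters was 3 without Control 658, 0 without Control 664 and 1 without each of the other 11 arrays. miR-92a, which shares its seed with miR-25, was less close to it (r = 0.74, adjusted permutation p = 0.135) than to its neighbour miR-19a (r = 0.89, rho = 0.87, permutation p = 3e-05 and 2.8e-04, adjusted p = 0.010 and 0.048). That the 2 values of r differ was not tested.

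miR-20b-5p of the X-linked paralog cluster moved with miR-17-92. Its levels were -3.58, -3.39 and -3.16 (lowest, median and highest) in HFD daughters, against -3.61, -3.44 and -3.10 in Control daughters, a log2 difference of 0.035 ± 0.088 (SE, adjusted p = 0.983 in limma). It had r from 0.86 (miR-92a) to 0.95 (miR-20a) with the 5 miR-17-92 members, all called by r (adjusted permutation p 0.0062 to 0.024) and all but miR-19a by rank (rho 0.86, adjusted permutation p 0.051). It had r of 0.14 to 0.71 with the miR-106b-25 members, none called.

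The 3 muscle-rich arrays held high values of most members. HFD 629, Control 662 and Control 664 were all above the median of the 13 arrays for 7 of 8 members (1 of 3 for miR-93). Without them the mean r was 0.80 within miR-17-92, 0.70 within miR-106b-25 and 0.42 between clusters, and 1, 0 and 0 pairs were called over 10 arrays, where 0.177% of all pairs were. With the muscle marker mean, the members had r of 0.23 to 0.67 and none was called, against 2.84% of all tested miRNAs. That share takes in the 3 tested muscle markers that make up the mean. Within the 8 arrays of slide 1 the mean r was 0.92, 0.58 and 0.65. No pair of any miRNAs was called there, but 8 arrays limit how small a permutation p can be, so this decides nothing. No correlation was computed over the 5 arrays of slide 2. After group and slide means were removed, the mean r was 0.92, 0.58 and 0.51.

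The miRNAs outside both families whose levels were most like each cluster's mean were blood cell miRNAs. Of 167 tested miRNAs, those with the highest Pearson r with the miR-17-92 mean over 13 arrays were miR-142-5p (0.82), miR-451 (0.79) and miR-142-3p (0.78); miR-142 is a marker of white blood cells and miR-451 of red blood cells. For the miR-106b-25 mean they were miR-144 (0.83), miR-451 (0.82) and miR-144* (0.75), all of red blood cells. miR-144 and miR-144* are opposite strands of the same hairpin, as are the miR-142 products, so these are not all separate markers. Without the 3 muscle-rich arrays the r with the miR-17-92 mean was 0.68 for miR-142-5p, 0.71 for miR-451 and 0.68 for miR-142-3p, so miR-451 then came before both miR-142 products. With the miR-106b-25 mean it was 0.87, 0.83 and 0.75 for miR-144, miR-451 and miR-144*. Both miR-142 products were highest on Control 664, one of those 3 arrays, at 0.91 for miR-142-3p and -2.04 for miR-142-5p.

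With the red blood cell marker mean, the 8 members had r of 0.61 to 0.87, and miR-19a and miR-25 were called, against 2.84% of all tested miRNAs (5 of 176). The 176 include the 3 markers that make up this mean, so the share is not a background apart from them. These values depend on the scaling: the members' median r was 0.72 here, 0.23 with the percentile taken over all probes, and 0.52 to 0.54 with an RMA-like summary, quantile normalization or the total gene signal. The percentile over all probes lies at far dimmer probes, and its median ratio to the main scaling value was 0.0085. Scaled that way, all pairs of tested miRNAs had a median r of 0.30, against 0.029 in the main scaling. Under 8 other scalings, summaries and backgrounds, tried after the values were seen, miR-19a was called in 3 (median scaling, RMA-like and the deposited table) and miR-25 in 3 (median scaling, the higher floor and the deposited table). Among all miRNAs, 5 were called with median scaling, 4 with RMA-like, 3 with the higher floor and 39 with the deposited table. The higher floor, log2 -3.67, lay above the median miR-19a level of both groups and so cut off much of its variation. In the deposited table every tested member was called, so the call there is not particular to miR-19a or miR-25. With the percentile over all probes neither was called (r = 0.68 and 0.18, adjusted permutation p = 0.148 and 0.764). For miR-19a, r was 0.87 and rho 0.88 (permutation p = 1.7e-04 and 1.8e-04, adjusted p = 0.0067 and 0.0079), and r was 0.84 without the 2 farthest arrays and 0.92 on slide 1. For miR-25, r was 0.81 and rho 0.86 (permutation p = 0.0012 and 3.1e-04, adjusted p = 0.031 and 0.011), and r was 0.84 without the 2 farthest arrays and 0.85 on slide 1. The call of miR-19a held without each of the 13 arrays in turn. That of miR-25 held in 8 of 13 such fits and was lost without Control 656, Control 662, HFD 620, HFD 629 or HFD 660 (adjusted permutation p 0.051 to 0.073). Without the 3 muscle-rich arrays miR-19a was called (r = 0.88, adjusted permutation p = 0.021) and miR-25 was not (r = 0.79, adjusted permutation p = 0.183). Within slide 1 neither was called (adjusted permutation p = 0.110 and 0.223).

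Once each miRNA's straight-line relation to the red blood cell mean was subtracted, a step chosen after the values were seen, the mean r was 0.83 within miR-17-92, 0.38 within miR-106b-25 and 0.087 between clusters. The same step with the muscle mean gave 0.86, 0.67 and 0.40, and with the white blood cell mean 0.85, 0.72 and 0.60. The red blood cell markers include miRNAs already among those closest to the cluster means, and the part of blood in the covariation was not tested. With the white blood cell mean the members had r of -0.048 to 0.67, and with the fat marker mean -0.49 to 0.44, and none was called (0.568% and 0% of all). With the endothelium mean r was -0.64 to -0.25 and with the epithelium mean -0.58 to 0.12. No member was called in either direction (lowest adjusted permutation p 0.254 and 0.173), and 1.7% of all were called positive for each. Against miR-338, the only tested nerve marker, r was -0.69 (miR-93) to 0.25, and against miR-122 of liver -0.46 to 0.0020. No member was called there in either direction, and 0.568% of all were called positive for each. Each of these shares also takes in the markers that make up the mean. Correlations with the brightness of an array (r 0.068 to 0.42) and its number of detected miRNAs (r 0.15 to 0.44) were not called either.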

How the data were processed

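Per the labels' protocols, total RNA of each fat sample was extracted with a miRNeasy kit and labelled with Cy3. Per the file headers, the authors read each array with Agilent Feature Extraction 10.7.3.1 on an rn4 grid, and the deposited intensity of a spot is background-subtracted, linear and not normalized between arrays. The deposited value table holds log2 of Feature Extraction's total gene signal per miRNA, blank where undetected, and served as an alternative. RMA and Partek are listed, per the submitters' processing notes, and their role is not given in the sources used here.

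Spots flagged as outliers were left out (262 to 502 per array of 13540), and none was saturated. The mean over a probe's remaining spots was scaled by the 75th percentile of 260 probes on that array, values under 0.0197 (log2 -5.67) were raised to it, and the log2 values of a miRNA's probes were averaged. Detection needed a probe with a share of 0.5 or more of its spots flagged well above background, and testing needed detection on 6 arrays. Groups were compared with limma 3.58.1 (R 4.3.3, lmFit and eBayes, two-sided, Benjamini-Hochberg over 176 miRNAs, threshold 0.05). Correlations used two-sided permutation p (100000 permutations, NumPy 2.4.6), adjusted over all 15400 pairs, or over 176 miRNAs for a marker mean. Both were tested on simulated data. The number of arrays limits the precision. The p-values measure the spread between these rats as labelled, and nothing shows that litters were independent. Slides were read from the array identifiers. Named were all 9 members, each tested relative, and the 3 outside miRNAs most correlated with each cluster mean. Members, relatives, marker lists and settings were chosen with earlier results of these data known. miR-486 and miR-155, on the marker lists, have no entry of that name among the array's miRNAs. The normexp alternative used median spot signals, since mean signals are not in the files used.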

Additional observations from a re-analysis of the deposited data

How the results depend on the processing

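No miRNA was called between HFD and Control under any of the 30 alternatives (other scalings, background, summaries, blocks, filters and each array left out), with adjusted p of the members of 0.273 or more. The members' median difference was 0.013 to 0.088 without each array in turn and -0.13 within slide 2. Within slide 2 the differences reversed to -0.061 (miR-17-5p), -0.26 (miR-19a), -0.13 (miR-20a, miR-19b), -0.30 (miR-92a), -0.16 (miR-106b), -0.060 (miR-93) and -0.11 (miR-25). Other reversals were small: miR-106b to -0.015 with the percentile over all probes, miR-20a, miR-19b, miR-92a and miR-106b to -0.016, -0.0010, -0.029 and -0.039 with the total gene signal, and miR-19a to -0.0018 with a floor 4 times as high and to -0.012 with the deposited table without its differing values. Without each array in turn, miR-20a ran from -0.020 to 0.074, miR-92a from -0.023 to 0.072 and miR-106b from -0.019 to 0.036. The floor 4 times as high lay at log2 -3.67, above all main levels of miR-17-5p and above the median miR-19a level of both groups. Values of these members were raised to it there, which cuts off variation below it. The cause of these reversals was not tested. The diet and slide interaction was called for 0 to 5 miRNAs without each array in turn, 0 with quantile normalization and 18 without the 3 muscle-rich arrays. The fit without these 3 arrays has 1 Control array on slide 2, so its count of 18 decides nothing. The interaction there was 0.0043 for miR-17-5p, 0.015 for miR-20a and negative for the other members, miR-93 among them. Mean r within miR-17-92 was 0.81 with quantile normalization, 0.81 with an RMA-like summary, 0.79 with the higher floor, 0.96 with the deposited table without its differing values, 0.83 and 0.85 after the red and white blood cell means, 0.80 without the 3 arrays, and 0.87 to 0.91 without each array; 6 to 9 pairs were called without each array, 1 without the 3 arrays and 0 within slide 1. Within miR-106b-25 it was 0.53 with quantile normalization, 0.95 with either form of the deposited table, 0.38 after the red blood cell mean, 0.58 within slide 1 and 0.63 to 0.77 without each array, with 3 pairs called for the percentile over all probes and the deposited table, 0 for median scaling, quantile normalization, RMA-like, without the 3 arrays and within slide 1, and 0 to 1 without each array. Between clusters it was 0.83 and 0.88 with the forms of the deposited table, 0.087 after the red blood cell mean and 0.44 to 0.68 without each array, with 4 pairs called for the percentile over all probes, 1 for quantile normalization, total gene signal and the higher floor, 14 for the deposited table, 5 for normexp, 0 for RMA-like, without the 3 arrays and within slide 1, and 0 to 3 without each array. These counts move with the background: 13.1% of all pairs were called with the percentile over all probes, 13.2% with normexp and 22.3% with the deposited table. The median r over all pairs moved too, from 0.029 in the main setting to 0.30 with the percentile over all probes and 0.26 with normexp. It was 0.40 with the deposited table and 0.49 with that table without its differing values. The few arrays of slide 1 limit how small a permutation p can be, so its counts of 0 decide nothing. The members' median r with the red blood cell mean was 0.72, and 0.23 with the percentile over all probes, 0.53 with quantile normalization, 0.54 with total gene signal, 0.85 with the deposited table, 0.52 with RMA-like, 0.59 with the higher floor, 0.61 with normexp and 0.67 to 0.77 without each array. No paired analysis was possible because the labels give no litter, father or pairing of rats. Normexp on mean spot signals was not run. Signal over background limits miR-18a and the opposite strands, which give a bound at most, and 13 rats limit everything else.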

Other observations

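In the authors' deposited value table miR-19a stands at 14.62 on HFD 629, against 7.97 for log2 of the total gene signal of the same array. It is 1 of 26 among 2569 values that differ by more than 2e-04, and the log2 difference of miR-19a between HFD and Control daughters computed from that table was 1.23 (adjusted p = 0.992 in limma), against 0.095 from the spot intensities. The 14.62 entered only the values given for the deposited table, and not those for that table without its differing values.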
